A study of Mus musculus with 24 samples.

Results

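The glutathione S-transferase genes described here are *Gsta4*, *Gstm1*, *Gstm2*, *Gstm5*, *Gsto1*, *Gstp1*, *Gstt1*, *Gstt3*, *Mgst1* and *Mgst3*, followed across 24 RNA-seq libraries of mouse myoblasts. They were taken by name from the count table, as a set of family members put together with earlier results of these data known, and are 10 of the 55291 gene symbols in the count table. All 10 passed the filter on low counts over the 24 libraries. *Gstt1* was left out of the fits on scr cells alone and of the comparisons of *Baf180* and *Brd9* KD with scr, where its counts were too low.

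The experiment asked how loss of a subunit of each SWI/SNF chromatin remodeling complex changes the response of proliferating myoblasts to copper (Cu) and zinc (Zn). The 4 lines were C2C12 cells, an immortalized mouse myoblast line, which carried a scrambled shRNA (scr) or an shRNA against *Baf180* (gene symbol *Pbrm1*, of the PBAF complex), *Baf250a* (*Arid1a*, of the canonical BAF complex) or *Brd9* (of the non-canonical BAF complex). Each line was grown without added metal (NT), in medium to which 100 µM CuSO4 had been added, or in medium with ZnSO4 at 50 µM, over 48 h, and 2 independent biological replicates were sequenced in each of the 12 groups. All 4 lines were lentivirally transduced and puromycin-selected populations rather than single clones, so the controls share transduction and selection, and each KD is 1 line. The sample labels name primary myoblasts and a lipofectamine-mediated knockdown, whereas the methods of the study describe C2C12 cells and stable transduction, and the latter is used here.

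Glutathione S-transferases join the tripeptide glutathione to electrophilic molecules, which makes them soluble and ready for export from the cell. The cytosolic enzymes fall into classes named by Greek letters, among them alpha (*Gsta4*), mu (*Gstm1*, *Gstm2*, *Gstm5*), omega (*Gsto1*), pi (*Gstp1*) and theta (*Gstt1*, *Gstt3*), while *Mgst1* and *Mgst3* encode membrane-bound enzymes of a separate fold. Many of these genes are known targets of NRF2, a transcription factor that is released from its inhibitor KEAP1 when cells meet oxidants, electrophiles or metals, and *Gsta4* encodes an enzyme known for its activity on 4-hydroxynonenal, an aldehyde formed when lipids are oxidized.

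The upstream sequences of the members that moved together between lines or with Cu are shown first, from RefSeq (build GRCm38.p6), each a window of 300 bases around an annotated start, most of it upstream, written 5′ to 3′ along the gene. Entries were found for 9 of the 10 members, with 12 starts, and *Gsta4* had none in the table used. Capitals mark matches on either strand to the NRF2 core TGACNNNGC, the AP-1 core TGANTCA or the metal response element core TGCACNC or TGCGCNC. The first 2 cores can overlap, so that 1 stretch may match both. The first 3 lines are members that were higher in all 3 KD lines than in scr, and the last 2 are members that, like *Gstm1*, were higher with Cu.
Gstm1, chr3:108017924-108018223, minus strand: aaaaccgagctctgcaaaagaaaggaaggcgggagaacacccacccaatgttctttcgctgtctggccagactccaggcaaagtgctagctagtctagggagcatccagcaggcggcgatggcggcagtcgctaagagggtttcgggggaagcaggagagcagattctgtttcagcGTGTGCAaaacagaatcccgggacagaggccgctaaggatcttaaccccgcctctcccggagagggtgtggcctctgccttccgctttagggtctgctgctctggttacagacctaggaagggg
Gstm2, chr3:107986371-107986670, minus strand: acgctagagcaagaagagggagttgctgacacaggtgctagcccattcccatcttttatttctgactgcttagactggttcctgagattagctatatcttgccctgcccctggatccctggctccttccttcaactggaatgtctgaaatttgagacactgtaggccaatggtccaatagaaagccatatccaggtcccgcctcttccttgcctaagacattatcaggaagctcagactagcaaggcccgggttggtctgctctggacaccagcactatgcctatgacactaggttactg
Mgst1, chr6:138140277-138140576, plus strand: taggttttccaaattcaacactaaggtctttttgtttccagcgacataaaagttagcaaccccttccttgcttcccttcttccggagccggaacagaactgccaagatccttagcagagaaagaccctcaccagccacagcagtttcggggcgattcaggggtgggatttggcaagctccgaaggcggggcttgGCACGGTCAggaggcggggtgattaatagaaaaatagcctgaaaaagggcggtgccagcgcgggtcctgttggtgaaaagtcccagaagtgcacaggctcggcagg
Gsto1, chr19:47854723-47855022, plus strand: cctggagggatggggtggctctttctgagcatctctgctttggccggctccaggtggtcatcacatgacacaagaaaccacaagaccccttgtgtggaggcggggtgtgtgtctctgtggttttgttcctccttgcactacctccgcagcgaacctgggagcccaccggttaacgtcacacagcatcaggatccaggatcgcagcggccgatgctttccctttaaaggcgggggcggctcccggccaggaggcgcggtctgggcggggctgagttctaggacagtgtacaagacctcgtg
Gstp1, chr19:4037863-4038162, minus strand: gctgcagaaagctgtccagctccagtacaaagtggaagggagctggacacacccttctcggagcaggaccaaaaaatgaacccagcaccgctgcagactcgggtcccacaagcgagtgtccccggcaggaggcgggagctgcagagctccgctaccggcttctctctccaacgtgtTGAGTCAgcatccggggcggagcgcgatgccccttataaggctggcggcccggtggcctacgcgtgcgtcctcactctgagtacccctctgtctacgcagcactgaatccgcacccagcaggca
The NRF2 core was found in 12.39% of 32851 mouse promoters of this length, the AP-1 core in 7.808% and the metal response element core in 25.7%. Among the 5 windows shown, that of *Gstm1* held 1 metal response element core, that of *Mgst1* 1 NRF2 core and that of *Gstp1* 1 AP-1 core, and those of *Gstm2* and *Gsto1* held none of the 3. Among the members not shown, the *Gstm5* window held 1 of each core and that of *Gstt1* 1 metal response element core, while those of *Gstt3* and *Mgst3* and a second start of *Mgst1* held none. These are matches of letters only.

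Several family members are close in sequence, which bears on the counts because the authors kept only uniquely aligned reads. The coding sequences of *Gstm1* and *Gstm2* (GENCODE M21, principal transcripts) are both 654 bases long and identical at 85.9% of aligned bases, with a longest shared run of 60 bases. Their first 60 coding bases show how the reads of these neighbours on chromosome 3 can be told apart, with the bases of *Gstm2* that differ from *Gstm1* in capitals.
Gstm1, coding bases 1 to 60: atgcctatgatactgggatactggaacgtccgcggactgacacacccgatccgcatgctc
Gstm2, coding bases 1 to 60: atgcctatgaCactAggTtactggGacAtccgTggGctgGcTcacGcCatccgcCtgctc
They differ at 12 of these 60 positions. *Gstp1* and its neighbour *Gstp2* are 98.1% identical, with a shared run of 300 bases, so part of the reads of *Gstp1* could not be placed uniquely and its level is uncertain. The theta genes *Gstt1* and *Gstt3* are 76.2% identical, and *Gsta4* shares 68.95% of its aligned coding bases with *Gsta1* and 68.84% with *Gsta2*.

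The members lie on 6 chromosomes (GRCm38). *Gstm1* (chr3:108012255-108017973), *Gstm2* (chr3:107981702-107986453) and *Gstm5* (chr3:107895821-107898686) form a cluster, and *Gstt1* (chr10:75783813-75798584) lies beside *Gstt3* (chr10:75774115-75781414). *Gsta4* is at chr9:78182774-78209349, *Gsto1* at chr19:47854970-47864790, *Gstp1* at chr19:4035407-4037985, *Mgst1* at chr6:138140316-138156755 and *Mgst3* at chr1:167371966-167393841. All 10 are annotated as protein-coding genes, and the counts cover their exons.

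Library depth ranged from 12719173 to 75179394 counts in 23 libraries, and the second Zn replicate of *Baf250a* KD held 495778. That shallow library gave the 10 members 302 counts together, so results for Zn in *Baf250a* KD are given with and without it. The targeted transcripts were lower in each KD than in scr in 6 of 6 libraries: *Pbrm1* ran from 42.2 to 75.7 against 99.9 to 227 CPM (counts scaled to the normalized library size), *Arid1a* from 92.0 to 144 against 266 to 308 and *Brd9* from 13.8 to 17.9 against 27.2 to 32.4. Of 7 myoblast markers, 5 or 6 were above 1 CPM in every library of a line, and their summed level was 2777 to 3925 CPM in scr, 1735 to 1940 in *Baf180* KD, 1352 to 1509 in *Baf250a* KD and 1881 to 2329 in *Brd9* KD. *Des* and *Chrna1* carried most of that sum. *Myf5* was also lower in each KD, at 36.3 to 56.9 CPM in *Baf180*, 15.6 to 40.2 in *Baf250a* and 88.5 to 105 in *Brd9* KD. Its scr range was 114 to 195 CPM. *Cdh15* was at 303 to 443 CPM in scr and 115 to 149 in *Baf250a* KD, and overlapped scr in the other KD lines. *Myod1* was at 67.6 to 115 CPM in scr and 121 to 153 in *Baf250a* KD, and overlapped scr in the other KD lines. *Pax7* was at 0.948 to 1.62 CPM in scr, 2.76 to 3.53 in *Baf180* KD and 2.65 to 5.41 in *Brd9* KD. In *Baf250a* KD *Pax7* was at 0 to 1.06 CPM. Of 4 fibroblast markers, *Pdgfra* and *Dcn* were above 1 CPM throughout, *Lum* and *Thy1* were at or near 0, and the summed level was 5.07 to 7.97 CPM in scr, 23.4 to 37.2 in *Baf180* KD, 66.1 to 91.9 in *Baf250a* KD and 10.3 to 14.4 in *Brd9* KD. Markers of differentiated muscle summed to 67.2 to 100.1 CPM in scr, 110 to 156 in *Baf180* KD, 53.9 to 71.9 in *Baf250a* KD and 29.1 to 34.3 in *Brd9* KD. *Acta1* carried most of that sum in scr. *Myog* medians were 5.04 CPM in scr, 28.4 in *Baf180* KD, 9.6 in *Baf250a* KD and 2.88 in *Brd9* KD. Those of *Myh3* were 4.94, 26.7, 8.72 and 2.48 CPM in the same order. In *Baf250a* KD the medians of *Myog* and *Myh3* were thus above scr, with overlap for *Myog*. Those of *Acta1*, *Ckm* and *Tnnt3* were below scr, with overlap for *Ckm* and *Tnnt3*. Endothelial markers summed to 3.49 to 5.57 CPM in scr and at most 2.06 in a KD library, leukocyte markers to 2.98 to 6.22 CPM over the 4 lines, and hepatocyte and epithelial markers to below 1 CPM. The endothelial sum in scr was almost all *Kdr* (3.36 to 5.48 CPM), and the leukocyte sum almost all *Cd68*. *Pecam1*, *Cdh5*, *Ptprc* and *Adgre1* stayed below 1 CPM.

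Levels between genes were compared per exon length (RPKM, median over the 24 libraries). *Gsta4* was the most abundant member at 198 RPKM, followed by *Gstp1* at 112, *Gsto1* at 70.5 and *Gstm1* at 42.6. *Gstm5* (15.4 RPKM), *Mgst3* (14.5) and *Gstm2* (7.47) were intermediate, *Mgst1* was low at 2.32, and *Gstt3* (0.330) and *Gstt1* (0.227) were close to the limit of detection with at most 53 and 37 counts in a library. Together the 10 members made up 94.7% to 97.1% of the summed RPKM of the 28 family genes in the table, the other 18 including *Gstz1*, *Gsto2* and *Gsta1* to *Gsta3*.

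**Figure D1:**
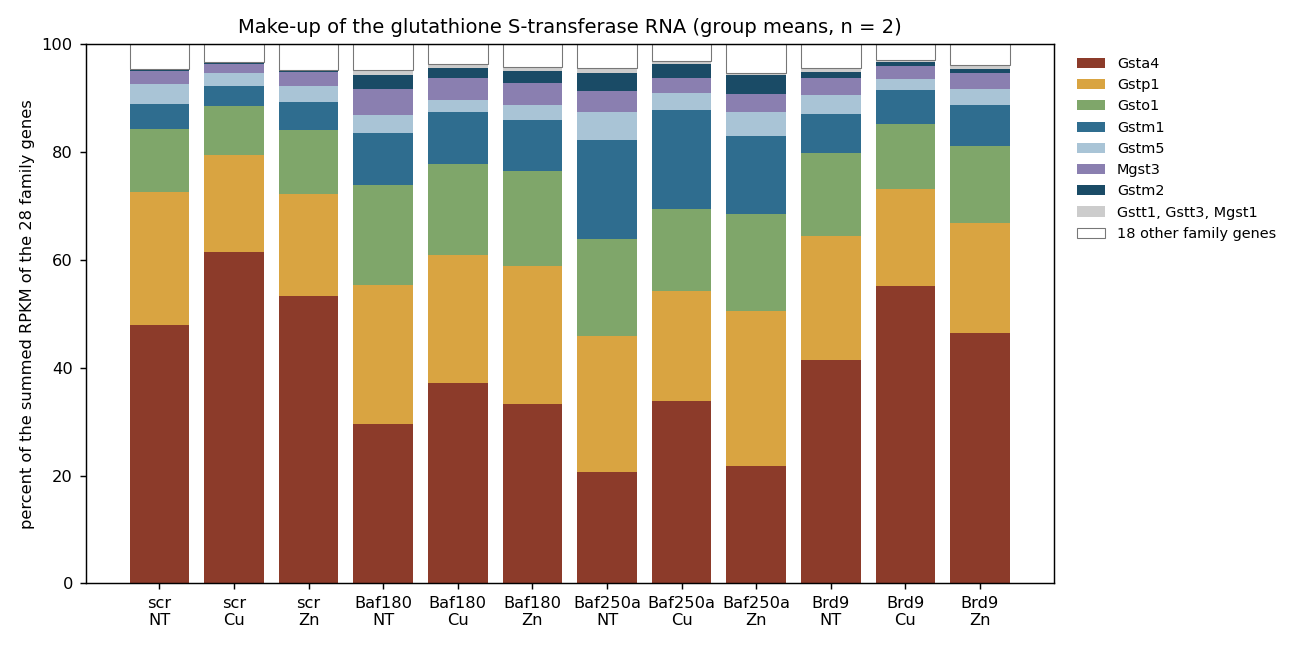
Share of each member in the summed RPKM of 28 glutathione S-transferase family genes, as the mean of 2 libraries in each of the 12 groups. The bars start at 0 and add to the whole family, and the *Gsta4* segment falls from 47.9% in scr NT to 20.6% in *Baf250a* KD NT while that of *Gstm1* widens from 4.53% to 18.4%.

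The make-up of the family differed between lines. Without added metal, *Gsta4* held 47.9% of the summed RPKM in scr, 41.4% in *Brd9* KD, 29.5% in *Baf180* KD and 20.6% in *Baf250a* KD. *Gstm1* went the other way, with 4.53% in scr, 7.28% in *Brd9* KD, 9.63% in *Baf180* KD and 18.4% in *Baf250a* KD. With Cu the share of *Gsta4* was larger than without in each line, reaching 61.4% in scr and 33.8% in *Baf250a* KD.

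**Figure D2:**
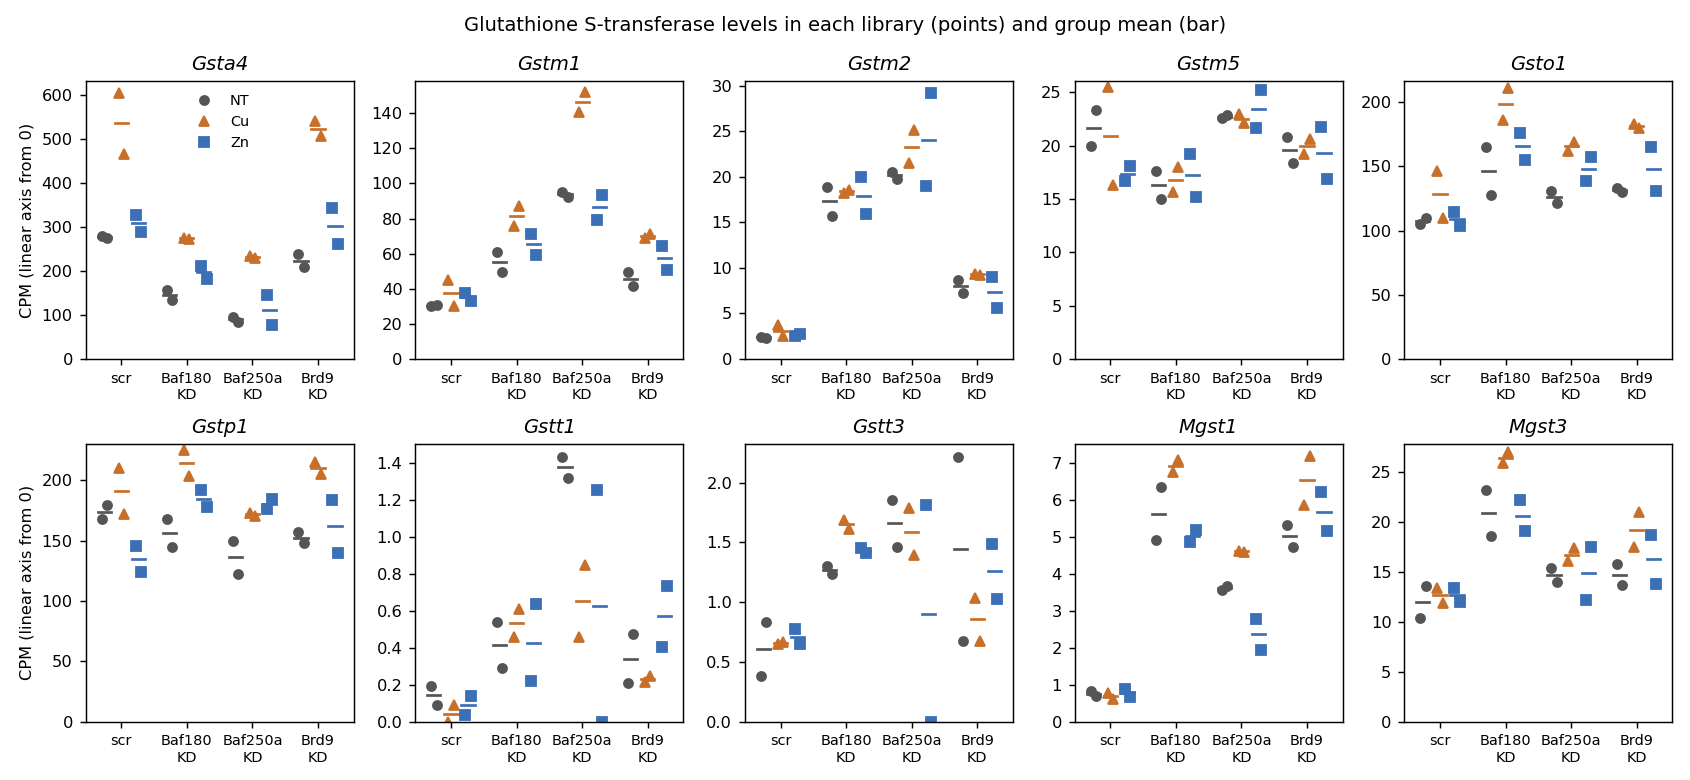
CPM of each member in all 24 libraries, on linear axes from 0, by line (x axis) and treatment (circles NT, triangles Cu, squares Zn), with short bars for group means of 2 libraries. *Gsta4* is highest in scr and *Brd9* KD cells with Cu, at 465 to 605 CPM, and *Gstm2* and *Mgst1* are lowest in the scr libraries, at 2.32 to 3.73 and 0.623 to 0.889 CPM.

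*Gsta4* fell in all 3 KD lines and rose with Cu in the 3 KD lines. Without added metal it was at 279 and 274 CPM in scr, 157 and 135 in *Baf180* KD, 95.9 and 84.9 in *Baf250a* KD, and 239 and 208 in *Brd9* KD. No KD library reached the scr level. The log2 difference from scr was -0.91 ± 0.11 (SE) in *Baf180* KD (edgeR adjusted p = 4.75e-05), -1.61 ± 0.11 in *Baf250a* KD (adjusted p = 5.74e-08) and -0.29 ± 0.09 in *Brd9* KD (adjusted p = 0.0497). The last of these, a level 0.818 times that of scr, was called in 1 of 6 alternative fits and in neither fit without 1 of the *Brd9* KD replicates (log2 -0.39 and -0.23). In bulk RNA a lower share of cells with the transcript and less transcript per cell cannot be told apart.

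*Gstm1*, a mu-class enzyme that conjugates a wide range of electrophiles, was higher in all 3 KD lines. It was at 30.3 and 30.6 CPM in scr, 61.0 and 49.8 in *Baf180* KD, 95.4 and 92.5 in *Baf250a* KD, and 49.8 and 41.7 in *Brd9* KD, without overlap with scr. The fold over scr was 1.84 in *Baf180* KD (log2 0.88 ± 0.12, adjusted p = 0.000188), 3.09 in *Baf250a* KD (1.63 ± 0.11, adjusted p = 5.41e-08) and 1.52 in *Brd9* KD (0.61 ± 0.12, adjusted p = 0.00858), the last lost without *Brd9* KD replicate 1 (0.48, adjusted p = 0.0882). *Gsta4* and *Gstm1* thus had the same order of lines in opposite directions, with *Baf250a* KD farthest from scr and *Brd9* KD nearest.

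*Gstm2*, the neighbouring mu gene, showed the larger contrast. It was at 2.42 and 2.32 CPM in scr NT against 18.9 and 15.7 in *Baf180* KD, 20.5 and 19.8 in *Baf250a* KD, and 8.70 and 7.29 in *Brd9* KD. These are folds of 7.36 (log2 2.88 ± 0.19, adjusted p = 5.48e-07), 8.5 (3.09 ± 0.18, adjusted p = 1.58e-08) and 3.42 (1.77 ± 0.22, adjusted p = 0.00123). *Gstm5*, the third mu gene, did not share this pattern: it stayed between 15.0 and 25.5 CPM in the 24 libraries and was called in 1 comparison, lower in *Baf180* KD (log2 -0.40 ± 0.15, adjusted p = 0.0474), a call made in 2 of 6 alternative fits and lost without either *Baf180* KD replicate (-0.54 and -0.33) or scr replicate 2 (-0.28).

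*Mgst1*, a membrane enzyme with transferase and peroxidase activity, was near 0 in scr and detected in every KD. Its level without metal was 0.829 and 0.697 CPM in scr, 4.93 and 6.34 in *Baf180* KD, 3.56 and 3.67 in *Baf250a* KD, and 5.33 and 4.72 in *Brd9* KD. The scr values rest on 13 and 15 counts and the KD values on 70 to 154. The fold was 7.52 in *Baf180* KD (log2 2.91 ± 0.32, adjusted p = 3.39e-05), 4.76 in *Baf250a* KD (2.25 ± 0.32, adjusted p = 7.08e-05) and 6.69 in *Brd9* KD (2.74 ± 0.30, adjusted p = 0.000665). Unlike the mu genes, *Mgst1* was lowest of the 3 KD lines in *Baf250a* KD, although the *Baf250a* and *Brd9* KD lines were not tested against each other.

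*Mgst3*, the other membrane enzyme, was higher in *Baf180* KD, at 23.2 and 18.5 CPM against 10.4 and 13.6 in scr (log2 0.80 ± 0.17, adjusted p = 0.003, but 0.62 and 0.0644 without *Baf180* KD replicate 1). It was at 15.3 and 14.0 CPM in *Baf250a* KD and 15.7 and 13.7 in *Brd9* KD, which did not pass the test. *Gsto1*, an omega-class enzyme that acts as a thiol transferase and reductase, was at 105 and 110.2 CPM in scr and 165 and 128 in *Baf180* KD (log2 0.45 ± 0.12, adjusted p = 0.0111, but 0.23 and 0.277 without *Baf180* KD replicate 1). In *Brd9* KD it was at 133 and 130.1 CPM (log2 0.31 ± 0.09, adjusted p = 0.0399), a call made in 2 of 6 alternative fits and in none that left out 1 of the 4 libraries (0.27 to 0.33). *Gstp1* was lower in *Baf250a* KD, at 150 and 123 CPM against 168 and 180 in scr (log2 -0.35 ± 0.12, adjusted p = 0.0192, but -0.21 and 0.303 without *Baf250a* KD replicate 2).

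The theta genes rest on few counts. *Gstt1* had 37 and 28 counts in *Baf250a* KD NT against 3 and 2 in scr NT, a ratio of counts per total of 10.3 with an exact 95% interval of 4.19 to 32.7 that covers counting error only (log2 3.29 ± 0.56 in the fit, adjusted p = 0.000264). *Gstt1* passed the filter of that fit only through the *Baf250a* KD libraries, where it was high, so its call there adds no support. In *Baf180* KD its ratio to scr was 3.04 (interval 1.10 to 10.4) and in *Brd9* KD 2.42 (0.777 to 8.90). *Gstt3* was at 1.86 and 1.46 CPM in *Baf250a* KD against 0.382 and 0.836 in scr (log2 1.39 ± 0.44, adjusted p = 0.016), a call lost without *Baf250a* KD replicate 1 (1.19) or scr replicate 1 (0.99) and in DESeq2 (1.43, adjusted p = 0.092). These levels are at or below about 2 CPM, where depth limits the comparison. *Gstt3* had 6 and 18 counts in scr NT. It too passed the filter of the *Baf250a* KD fit only with the KD libraries, where it was higher, so its call adds no support.

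**Figure D3:**
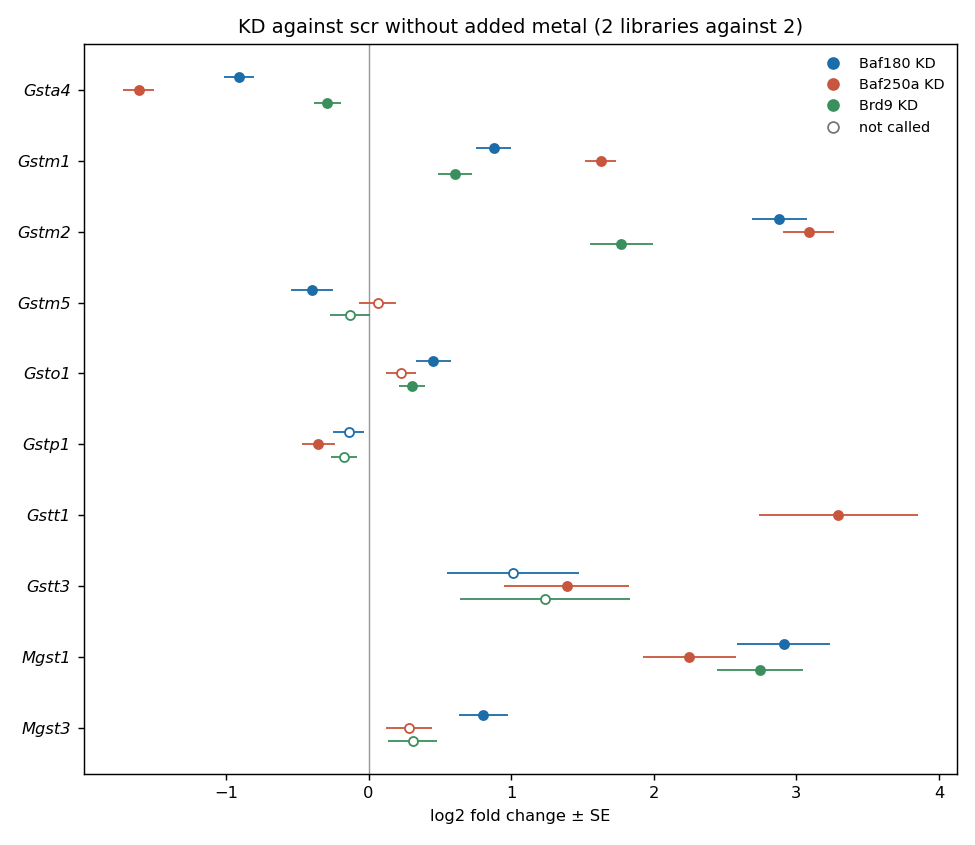
Log2 fold change (x axis) of each member in *Baf180*, *Baf250a* and *Brd9* KD against scr without added metal, with the SE of the fit on 2 libraries against 2. Filled points passed an adjusted p under 0.05. *Gsta4* lies left of 0 in the 3 KD lines, from -1.61 to -0.29, and *Gstm1*, *Gstm2* and *Mgst1* lie right of it, from 0.61 to 3.09.

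In all, 7 of 9 tested members were called in *Baf180* KD against scr, 5 higher and 2 lower, where 41.0% of 14851 genes were called, 21.7% higher and 19.3% lower. In *Baf250a* KD 7 of 10 were called, again 5 higher and 2 lower, against a background of 57.8% of 14971 genes, 28.9% in each direction. *Gstt1* and *Gstt3*, among these 5 and in the median below, passed the filter there only with the KD libraries, where they were higher. *Gstt3*, not called in the other KD lines, also passed the filter of those comparisons only with the KD libraries. In *Brd9* KD 5 of 9 were called, 4 higher and 1 lower, against 29.2% of 14277 genes, 15.1% higher and 14.1% lower. The median log2 difference of the tested members was 0.80, 0.84 and 0.31 in the 3 lines, beside 0.03, 0.00 and 0.01 over all genes tested. The 3 comparisons share the scr libraries and are not independent of each other. The summed fibroblast markers given above were higher in each KD than in scr and highest in *Baf250a* KD, and the part of these or of the muscle markers in the differences was not tested.

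The same contrast was read over all treatments as the overlap of the 6 libraries of a KD with the 6 of scr. In *Baf180* KD 6 members lay above every scr library (*Gstm1*, *Gstm2*, *Gstt1*, *Gstt3*, *Mgst1* and *Mgst3*), where 23.4% of 16524 genes did not overlap and 14.6% lay above. In *Baf250a* KD *Gstm1*, *Gstm2* and *Mgst1* lay above and *Gsta4* below, against 27.4% not overlapping and 14.0% above. The shallow Zn library of that line held 0 counts of *Gstt1* and of *Gstt3*, which sets their overlap with scr. In the deeper libraries of the line *Gstt1* was at 0.459 to 1.43 CPM, against at most 0.191 in scr. *Gstt3* was at 1.39 to 1.86 CPM in them, against at most 0.836 in scr. In *Brd9* KD *Gstm2*, *Gstt1*, *Mgst1* and *Mgst3* lay above, against 15.7% and 9.33%. *Gstt1*, at most 0.191 CPM in scr, was too low there for the fits on scr cells alone. It passed the filter over the 24 libraries only with KD libraries, where it was higher. Its place above scr thus adds no support in any KD line.

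Copper raised *Gsta4* the most among the members. With Cu it reached 605 and 465 CPM in scr, 276 and 272 in *Baf180* KD, 235 and 230 in *Baf250a* KD, and 540.3 and 506 in *Brd9* KD, and in each line both Cu libraries lay above both NT libraries. The fold was 1.84 in *Baf180* KD (log2 0.88 ± 0.09, adjusted p = 0.00282), 2.57 in *Baf250a* KD (1.36 ± 0.11, adjusted p = 2.87e-08) and 2.25 in *Brd9* KD (1.17 ± 0.11, adjusted p = 0.00533). In scr the value was 1.95 (0.97 ± 0.12), which did not pass in edgeR (adjusted p = 0.118) but did in 3 of 6 alternative fits, DESeq2 among them, and without either scr Cu replicate (0.80 and 1.12). The *Brd9* KD call was lost without its first Cu replicate (1.13, adjusted p = 0.0763).

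The Cu responses of *Gsta4* in the KD lines did not differ detectably from that in scr. The KD lines were not tested against each other. Its log2 response in a KD minus that in scr was -0.04 in *Baf180* KD (95% interval -0.51 to 0.42), 0.41 in *Baf250a* KD (-0.06 to 0.87) and 0.27 in *Brd9* KD (-0.19 to 0.74). None of the 10 members was called for such a difference in any of the 3 lines in edgeR or DESeq2, and none had an unadjusted p under 0.05, where 12.8% of 16524 genes were called in *Baf180* KD, 0.0121% in *Baf250a* KD and 0.0363% in *Brd9* KD. In order of mean level over the 12 groups, scr with Cu (535 CPM) and *Brd9* KD with Cu (523 CPM) came first and their libraries overlapped, and *Baf250a* KD without metal came last at 90.4 CPM. Of the 11 neighbouring pairs in that order, 8 overlapped.

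*Gstm1* also rose with Cu, though less. It reached 45.1 and 30.1 CPM in scr, 75.9 and 87.3 in *Baf180* KD, 141 and 152 in *Baf250a* KD, and 68.9 and 71.1 in *Brd9* KD, and the Cu and NT libraries overlapped only in scr. The log2 change was 0.53 ± 0.12 in *Baf180* KD (adjusted p = 0.0218) and 0.64 ± 0.09 in *Baf250a* KD (adjusted p = 7.6e-05), while 0.56 ± 0.11 in *Brd9* KD (adjusted p = 0.0906) and 0.31 ± 0.17 in scr (adjusted p = 0.531) did not pass. *Gsto1* changed by 0.41 ± 0.11 in *Baf180* KD (adjusted p = 0.0422) and 0.39 ± 0.09 in *Baf250a* KD (adjusted p = 0.0211), against 0.41 ± 0.09 in *Brd9* KD (adjusted p = 0.121) and 0.26 ± 0.13 in scr (adjusted p = 0.493).

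*Gstp1* with Cu was at 225 and 203 CPM in *Baf180* KD against 168 and 145 without (log2 0.42 ± 0.09, adjusted p = 0.0178). Without *Baf180* Cu replicate 1 or NT replicate 2 the 3 smaller calls of that line, *Gstm1*, *Gsto1* and *Gstp1*, were lost (*Gstm1* 0.63 and 0.41, *Gsto1* 0.50 and 0.26, *Gstp1* 0.35 and 0.34), as were *Gstm1* (0.42) and *Gsto1* (0.32) without Cu replicate 2. A correction for GC content and length ended the calls of *Gstm1*, *Gsto1* and *Gstp1* in *Baf180* KD (adjusted p = 0.0692, 0.115 and 0.0779) and those of *Gstm1* and *Gsto1* in *Baf250a* KD, and left those of *Gsta4*. The *Gsto1* call in *Baf250a* KD was made in 3 of 6 alternative fits and in none without 1 of its Cu or NT libraries (0.33 to 0.44).

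Averaged over the 4 lines on all 24 libraries, 4 members rose with Cu: *Gsta4* (2.16-fold, log2 1.11 ± 0.08, adjusted p = 2.38e-08), *Gstm1* (1.44-fold, 0.53 ± 0.08, adjusted p = 0.000217), *Gsto1* (1.31-fold, 0.39 ± 0.07, adjusted p = 0.00103) and *Gstp1* (1.27-fold, 0.35 ± 0.06, adjusted p = 0.0017). All 4 calls held in each of 6 alternative fits and without each library in turn. They compare with 7.86% of 16524 genes called, 4.67% of them higher. Within lines, the counts were 4 of 10 members in *Baf180* KD (13.8% of genes called, 5.46% higher), 3 of 10 in *Baf250a* KD (1.27%, 0.626% higher), 1 of 10 in *Brd9* KD (0.274%) and 0 of 9 in scr (0.0333%), where 1 member had an unadjusted p under 0.05 and DESeq2 called 1. *Gstm5*, *Gstt1*, *Gstt3*, *Mgst1*, *Mgst3* and *Gstm2* were called in no Cu comparison.

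**Figure D4:**
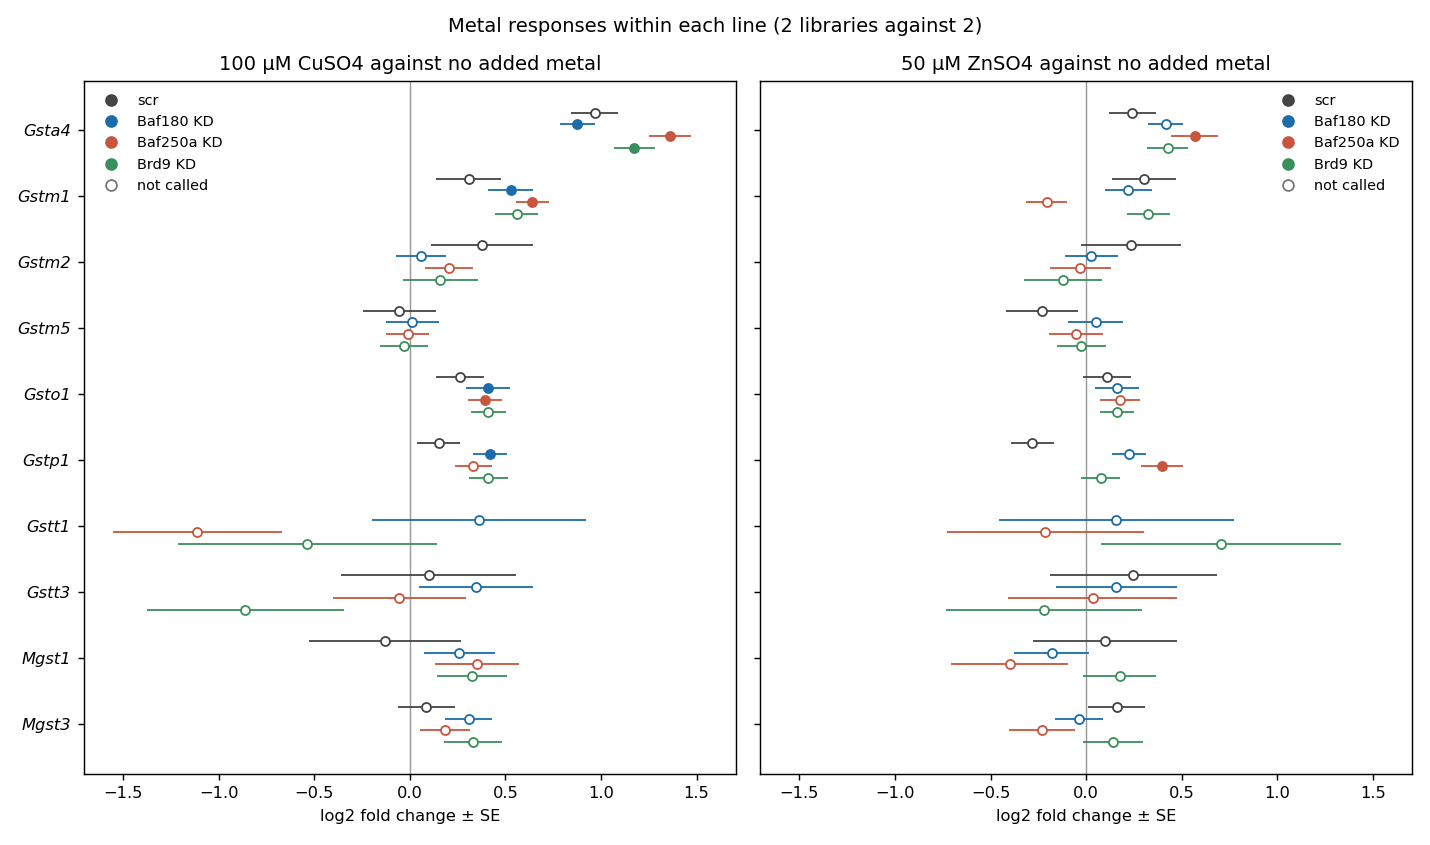
Log2 fold change (x axis) of each member with 100 µM CuSO4 (left) and 50 µM ZnSO4 (right) against no added metal in the 4 lines, with the SE of the fit, filled where the adjusted p was under 0.05. With Cu, *Gsta4* lies between 0.88 and 1.36 in the 4 lines, and with Zn between 0.24 and 0.57.

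Zinc moved fewer members. *Gsta4* was at 327 and 289 CPM in scr with Zn, 212 and 182 in *Baf180* KD, 146 and 77.8 in *Baf250a* KD, and 342 and 262 in *Brd9* KD. Both Zn libraries lay above both NT libraries in each line apart from *Baf250a* KD, where the shallow library, with 40 *Gsta4* counts, was the lowest of the line. The average over the 4 lines was 0.38 ± 0.08 on the log2 scale (adjusted p = 0.0461, 0.284% of 16524 genes called), and it missed the threshold when the *Baf250a* KD cells were left out (0.36, adjusted p = 0.0816) and in 20 of 24 fits that left out 1 library. Without the shallow library it was 0.43 (adjusted p = 0.00879), and without the other Zn replicate of *Baf250a* KD it was 0.20 (adjusted p = 0.569).

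In *Baf250a* KD with Zn, *Gsta4* (log2 0.57 ± 0.12, adjusted p = 0.00278) and *Gstp1* (0.39 ± 0.11, adjusted p = 0.0152) were called, 2 of 10 members where 15.9% of genes were called. Without the shallow library the values were 0.68 (adjusted p = 4.23e-06) and 0.36 (adjusted p = 0.0078), and *Gstm1* was also called, lower with Zn (-0.25, adjusted p = 0.0491). With that library as the only Zn sample *Gsta4* was at -0.20 and *Gstp1* at 0.46, and neither was called. Without *Baf250a* NT replicate 2 they were 0.44 and 0.26 and not called, and *Gstp1* (0.35) was also not called without either Cu replicate. No member was called with Zn in scr (0 of 9, 17.6% of genes called), *Baf180* KD (0 of 10, 0.0197%) or *Brd9* KD (0 of 10, 0.0334%) in edgeR. Unadjusted p-values were under 0.05 for 1, 2 and 2 members in these lines, and DESeq2 called 0, 1 and 0. The 1 member in *Baf180* KD was *Gsta4* (log2 0.42 ± 0.09, edgeR adjusted p = 0.264), which with the replicate number as a block had an adjusted p of 0.0101.

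*Gstp1* was the member whose Zn response differed between lines. It was at 146 and 124 CPM in scr with Zn against 168 and 180 without, at 192 and 178 against 168 and 145 in *Baf180* KD, at 176 and 185 against 150 and 123 in *Baf250a* KD, and at 184 and 140 against 157 and 148 in *Brd9* KD. Zn libraries lay below the NT libraries in scr and above them in *Baf180* and *Baf250a* KD. The log2 response minus that of scr was 0.61 ± 0.18 in *Baf180* KD (adjusted p = 0.0154, 28.7% of genes called) and 0.76 ± 0.19 in *Baf250a* KD (adjusted p = 0.00492, 30.5%), each 1 of 10 members, and no member was called in *Brd9* KD (1 with an unadjusted p under 0.05, 11.1%). The *Baf180* KD difference was 0.25 (adjusted p = 0.553) after the GC content and length correction, and it was not called without *Baf180* NT replicate 2 (0.50), *Baf180* Zn replicate 1 (0.55), scr NT replicate 2 (0.55) or scr Zn replicate 2 (0.49). The *Baf250a* KD difference was 0.74 (adjusted p = 0.0104) without the shallow library and was not called without the other Zn replicate (0.80, adjusted p = 0.0736).

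Genes that work beside the transferases were read from lists of genes by function. NRF2, its regulators and further NRF2 targets (15 genes) were called higher with Cu for 9 genes in *Baf180* KD, 7 in *Baf250a* KD and 5 in *Brd9* KD, with none lower, where 13.8%, 1.27% and 0.274% of all genes were called. In the average over lines 10 of the 15 were called higher, against 4.67% of all genes, and the median log2 change of the list was 0.34 beside 0.01 over all genes. The largest changes in that average were those of *Nqo1*, a quinone reductase (1.02 ± 0.07, adjusted p = 2.82e-08), *Srxn1*, a sulfiredoxin (0.82 ± 0.06, adjusted p = 1.75e-08), *Hmox1*, a heme oxygenase (0.78 ± 0.07, adjusted p = 3.87e-07), and *Pgd*, which makes NADPH (0.69 ± 0.07, adjusted p = 2.33e-06). In scr none of the 15 was called in edgeR, where 0.0333% of all genes were, and this count does not show a difference from the KD lines. Tested directly, the Cu response in *Baf180* KD exceeded that in scr for 4 of the 15 and was below it for 1. In that test 12.8% of all genes were called. For *Baf250a* and *Brd9* KD the same test called 0 of the 15, where 0.0121% and 0.0363% of all genes were called.

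Of 15 genes of glutathione synthesis and cysteine supply, 13 were tested in the average over lines, and 4 were higher and none lower with Cu, where 7.86% of all genes were called and 4.67% were higher. These were *Slc7a11*, the cystine importer (log2 0.86 ± 0.09, adjusted p = 2.55e-06), *Gclc* and *Gclm*, the subunits of the first enzyme of glutathione synthesis (0.56 ± 0.04, adjusted p = 1.75e-08, and 0.50 ± 0.05, adjusted p = 4.54e-07), and *Slc3a2*, the partner of *Slc7a11* (0.19 ± 0.06, only just past the threshold). Glutathione recycling and other glutathione-dependent enzymes (13 tested) had 3 higher and 1 lower, conjugate export and mercapturate steps (11 tested) 2 higher and none lower, and aldehyde detoxification (10 tested) 3 higher and none lower. The other 18 family genes had 10 tested and 2 higher, *Gsta1* (1.52 ± 0.33, adjusted p = 0.00613) and *Gsta2* (1.37 ± 0.20, adjusted p = 0.000147), which are 98.05% identical in coding sequence and stayed at or below 6.94 CPM, so their levels are uncertain.

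Between lines without added metal the same lists moved in both directions. The NRF2 list (15 tested) had 5 genes higher and 4 lower in *Baf180* KD, 5 higher and 7 lower in *Baf250a* KD, and 3 higher and 4 lower in *Brd9* KD. These counts stand against 41.0%, 57.8% and 29.2% of all genes called in the 3 lines. *Aldh3a1*, an aldehyde dehydrogenase, was higher in the 3 lines (log2 3.15, 2.65 and 1.87) and so was *Nqo1* (2.20, 2.33 and 1.43), whereas *Srxn1* was lower in *Baf180* and *Brd9* KD (-0.82 and -0.44) and *Txnrd1*, a thioredoxin reductase, in *Baf250a* KD (-1.17). For glutathione synthesis and cysteine supply the counts were 4 higher and 5 lower of 13 tested, 3 and 6 of 12, and 2 and 5 of 12 in the 3 lines, against the same shares of all genes, with *Chac1*, which degrades glutathione, lower in each (-0.92, -0.92 and -0.69). The other family genes had none higher and 1 lower of 9 tested in *Baf180* KD, 1 higher and 4 lower of 9 in *Baf250a* KD, and 1 and 1 of 7 in *Brd9* KD. *Gsta2* was lower in *Baf250a* KD (-3.96 ± 0.39, adjusted p = 2.66e-06) and *Brd9* KD (-1.11 ± 0.28, adjusted p = 0.0223). *Gsta1* (-3.23) and *Ptges*, a prostaglandin E synthase (-2.09), were also lower in *Baf250a* KD, *Ptges* (-1.55) in *Baf180* KD as well. *Ptges* reached at most 0.852 CPM and 41 counts in a library, and *Gsta1* at most 1.96 CPM and 57 counts. *Gsta1*, *Gsta2* and *Ptges* passed the filter of the *Baf250a* KD comparison only with the scr libraries, where they were higher. Those calls thus add no support, nor does that of *Ptges* in *Baf180* KD, for the same reason. *Gstm7*, a further mu gene, was higher in *Baf250a* KD (1.75 ± 0.40, adjusted p = 0.00247) and *Gstcd* in *Brd9* KD (0.39).

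The genes whose levels over the 12 group means were most like those of *Gsta4* were *Gsta1* (Pearson r = 0.96), *Ankrd33b* (0.96), *Plaur* (0.95), *Txnrd1* (0.95) and *Nepro* (0.95). For *Gstm1* they were *Ets1* (0.98), *Layn* (0.97), *Krt14* (0.97), *Tcf7* (0.97) and *Panx1* (0.97). *Gsta1* was near the floor, at no more than 1.96 CPM and 57 counts in a library, so its correlation is uncertain. Among the members, *Gstm1* and *Gstm2* had r = 0.89 and *Gsta4* and *Gstm2* r = -0.63. These values describe 12 groups from 4 lines, whose means share library depth and, within a line, the same transduced population.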

How the data were processed

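RNA-seq counts were analysed for 24 libraries, grouped by sample title because a treatment tag in the labels contradicts the titles. The authors depleted ribosomal RNA, built stranded libraries, aligned read pairs to mm10 with STAR keeping unique alignments, and counted them per gene with featureCounts, and the deposited values are whole-number counts, not normalized. Deposited tables of the authors' DESeq2 comparisons (log2 fold changes, p-values and adjusted p-values) were not used. Counts were normalized with TMM, filtered with filterByExpr and tested with the quasi-likelihood test of edgeR 4.0.16 in R 4.3.3, with Benjamini-Hochberg adjustment over all genes tested and a threshold of 0.05 ("called"). Each metal response used a fit to the 6 libraries of its line, KD against scr on 4 libraries, and differences and averages of responses on all 24, for 19 comparisons in all. CPM and RPKM use TMM sizes over the 24 libraries and GENCODE M21 exon lengths. The scripts were tested on simulated data.

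Described were all members, with tests for called members and for *Gsta4*, *Gstm1* and *Gsto1* with Cu, up to 4 called genes of largest change per list, and the 5 genes most correlated with *Gsta4* and *Gstm1*. Members and lists were chosen with earlier results of these data known. Alternatives were RLE size factors, a minimum of 1 count, DESeq2 1.42.0, other sets of libraries, a GC content and length offset, the replicate number as a block, and leaving out each library. Depth ranged from 495778 to 75179394 counts and limits low members most.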

Additional observations from a re-analysis of the deposited data

Results flagged for a closer look

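The Zn response of *Gstp1* differed between lines by a test of the difference itself. The log2 response in *Baf180* KD exceeded that in scr by 0.61 (edgeR adjusted p = 0.0154), and that in *Baf250a* KD exceeded it by 0.76 (adjusted p = 0.00492). Each is 1 of 10 members called, where 28.7% and 30.5% of all genes were called. The *Baf180* KD difference was called in 5 of 6 alternative fits and the *Baf250a* KD difference in 6 of 6, and each was lost without certain single libraries, as given above. The GC content and length correction lowered the *Baf180* KD difference to 0.25. *Gstp1* had the highest GC content of the members, at 55.8%. Per 10 points of GC, log2 levels shifted by 0.107 and 0.318 in scr NT and by -0.254 and -0.344 in scr Zn libraries. The part of GC content was not tested beyond that correction. Both differences use the same scr libraries, in which *Gstp1* was lower with Zn in 2 of 2 libraries, and *Gstp1* shares 98.1% of its coding sequence with *Gstp2*.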

How the results depend on the processing

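The labels do not tie equal replicate numbers to a shared batch. The correlation of same-numbered deviations from group means was 0.13, 0.25 and 0.15 for the 3 pairs of groups of *Baf180* KD, all over 0.1, and ran from -0.18 to 0.28 in the other 3 lines, none of which had all pairs over 0.1. With the replicate block, the number of members called was 3 for *Brd9* KD against scr, 1 for Zn in *Baf180* KD and 1 for the Zn response of *Brd9* KD minus that of scr. The GC content and length correction left 1 member called for Cu in *Baf180* KD, 1 for Cu in *Baf250a* KD, 2 for Cu in *Brd9* KD, 1 for Zn in *Baf250a* KD and 0 for the Zn response of *Baf180* KD minus that of scr. DESeq2 called 1 member for Cu in scr, 4 for Cu in *Brd9* KD, 1 for Zn in *Baf180* KD, 0 for Zn in *Baf250a* KD and 3 for *Brd9* KD against scr. With a minimum of 1 count the numbers were 1 for Cu in scr, 4 for Cu in *Brd9* KD, 1 for Zn in *Baf180* KD and 1 for Zn in *Brd9* KD. A fit on all 24 libraries called 1 for Cu in scr, 1 for Cu in *Baf250a* KD, 1 for Zn in scr, 0 for Zn in *Baf250a* KD and 3 for *Brd9* KD against scr. Without the *Baf250a* cells the averaged Zn response called 0. Where no value above shows it, the cause of these changes was not tested.

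Leaving out each library in turn gave 1 to 4 members for Cu in *Baf180* KD, 2 to 4 in *Baf250a* KD, 0 to 4 in *Brd9* KD and 0 to 1 in scr, and 0 to 3 for Zn in *Baf250a* KD. For KD against scr it gave 4 to 7, 6 to 9 and 2 to 4 in *Baf180*, *Baf250a* and *Brd9* KD, for the averages 4 to 5 with Cu and 0 to 1 with Zn, and 0 to 1 for each difference of Zn responses. The 1 value that changed sign was the Zn response of *Gsta4* in *Baf250a* KD, at -0.20 without Zn replicate 1, which leaves only the shallow library, and 0.68 without Zn replicate 2. Over single genes, 478 values kept direction and side of the threshold, 87 lost the call and 14 gained it.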
